A study of Mus musculus with 4 samples.

Results

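The genes described here encode the constitutive proteasome, and they were read in liver on Affymetrix arrays. Members were taken by name alone. Each is a gene whose symbol in the platform annotation begins with Psma, Psmb, Psmc or Psmd and a number, apart from the interferon-inducible subunits Psmb8, Psmb9 and Psmb10, and a probe set was kept where that was its only symbol. The rule gave 65 probe sets of 36 genes, out of 22626 probe sets and 12393 genes named on the arrays. Of these genes, 15 belong by name to the core particle (Psma and Psmb) and 21 to the regulatory particle (Psmc and Psmd). The samples were livers of adult male C57BL6 mice, all of them injected with an adenovirus, with tissue taken on day 6. In the control group the virus carried green fluorescent protein (GFP), and in the other group mouse lipin 1beta, a phosphatidate phosphatase that also acts as a transcriptional coactivator. There were 2 arrays per group, here called replicates 1 and 2. The labels do not tie an array to an animal, so p-values reflect only how much these samples varied, and that variation may be technical. Whole liver was used, in which fewer cells of a type cannot be told apart from less RNA per cell, and the labels do not say which promoter drove the viral genes.

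The proteasome is the protease that degrades proteins tagged with ubiquitin in the cytosol and nucleus. Its core particle is a barrel of alpha rings and beta rings, the alpha rings forming the gate and the beta rings holding the catalytic sites inside. Its regulatory particle sits on the end of the barrel. The base of that particle has a ring of ATPases that unfold the substrate and push it through the gate, and its lid removes the ubiquitin chain. In many cells the transcription factor NRF1, the product of Nfe2l1, raises transcription of proteasome genes together when proteasome activity is short.

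Promoter sequence was used to see what letters the members share near their starts, because genes of the complex are known to be induced together. RefSeq windows of GRCm38.p6, from 250 bases before the annotated start to 50 after it, matched 29 of the 36 genes by symbol, in 31 windows. The part before the start is printed for 4 members, namely the members with a window that had the highest and the lowest log2 difference in each particle. Sequences run 5′ to 3′ in the direction of the gene, and capitals mark matches to the motifs described after them. The printed part of Psmd9, an assembly chaperone of the base, lies at chr5:123227940-123228189 (plus strand), that of Psmd6, a lid subunit, at chr14:14120946-14121195 (minus strand), that of Psmb5, a catalytic beta subunit, at chr14:54617996-54618245 (minus strand), and that of Psma1, an alpha subunit, at chr7:114276117-114276366 (minus strand).
Psmd9: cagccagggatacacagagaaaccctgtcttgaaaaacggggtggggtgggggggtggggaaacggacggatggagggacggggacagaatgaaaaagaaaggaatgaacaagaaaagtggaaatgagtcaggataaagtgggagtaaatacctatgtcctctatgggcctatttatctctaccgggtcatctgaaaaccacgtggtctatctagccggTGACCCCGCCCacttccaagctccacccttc
Psmd6: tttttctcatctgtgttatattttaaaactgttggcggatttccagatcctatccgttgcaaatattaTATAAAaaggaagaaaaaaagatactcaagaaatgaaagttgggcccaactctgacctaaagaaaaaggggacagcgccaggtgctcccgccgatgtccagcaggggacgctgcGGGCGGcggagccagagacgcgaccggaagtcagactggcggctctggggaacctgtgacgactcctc
Psmb5: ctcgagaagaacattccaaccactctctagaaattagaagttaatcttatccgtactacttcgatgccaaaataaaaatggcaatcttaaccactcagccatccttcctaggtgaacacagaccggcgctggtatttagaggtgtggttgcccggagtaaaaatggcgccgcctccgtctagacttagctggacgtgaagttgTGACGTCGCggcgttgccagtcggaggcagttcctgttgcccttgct
Psma1: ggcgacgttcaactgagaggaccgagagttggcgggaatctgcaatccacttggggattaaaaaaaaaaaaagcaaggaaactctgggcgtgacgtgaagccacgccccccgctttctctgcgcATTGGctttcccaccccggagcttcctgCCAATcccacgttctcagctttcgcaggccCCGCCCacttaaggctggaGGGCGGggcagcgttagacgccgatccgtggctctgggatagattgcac

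4 patterns of letters were searched on both strands of the whole windows, and a match is only a match of letters. TGACNNNGC, the core of the antioxidant response element that NRF1 and NRF2 can bind, was found in 5 of the 31 proteasome windows (16.1%), compared with 12.4% of all 32851 windows. These were the windows of Psmb5, Psmb6, Psmc6, Psmd12 and Psmd9. CCAAT, the box bound by NF-Y, was found in 12 of the 31 (38.7%) and in 37.4% of all windows. GGGCGG, the GC box bound by Sp1, was found in 18 of the 31 (58.1%) and in 35.7% of all windows, with 13 of the 18 regulatory particle genes and 5 of the 11 core genes that had a window. TATAAA was found in 3 of the 31 (9.68%) and in 13.6% of all windows. In the printed part of Psmd9 the TGACNNNGC match spans bases 31 to 23 before the start and overlaps a GC box match on the opposite strand at bases 26 to 21. The Psmb5 match spans bases 47 to 39. Psma1 has 2 CCAAT and 2 GC box matches, and Psmd6 has 1 TATAAA match, which begins 182 bases before the start, and 1 GC box match.

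Signals are MAS5 signals, linear intensities in arbitrary units, and the median signal of an array ran from 582 to 746. Lpin1, the gene carried by the virus, did not separate the groups. The dimmer probe set read 2730 and 1430 in GFP replicates 1 and 2, against 2260 and 6719 in lipin replicates 1 and 2, and the other 7082 and 4632 against 3854 and 11087. Lipin replicate 1 was thus inside or below the control range, so directions below rest on the labels of the arrays. Whether these 2 probe sets lie in the lipin sequence that the virus carried is not known here. The Lpin1 signals therefore do not show how much viral lipin was expressed. GFP replicate 2 stood apart from the rest. Its mean correlation with the other arrays was 0.731, compared with 0.781 to 0.793 for them. The 3′ probes of beta-actin outshine its 5′ probes where RNA is degraded, and their ratio was 4.22 in GFP replicate 2, against 1.77 to 2.86. The same ratio of Gapdh set that array less far apart, at 2.01 against 1.52 to 1.78. Its ratio of 3′ over middle probes was the highest of the arrays for beta-actin (2.45) and the lowest for Gapdh (1.37). The label of lipin replicate 2 gives polyA RNA, where the labels of the others give total RNA. The liver label was borne out by 8 of 8 hepatocyte markers that were bright enough to test, among them Alb and Ttr. Their summed signal was 1596354 and 3416181 in the GFP arrays against 2235562 and 2744304 in the lipin arrays, so that it was highest in GFP replicate 2. Of 8 T and NK cell markers, Cd3e, Cd3d, Cd3g and Cd4 were too dim to test and the other 4 lay below 0. The summed signals of all 8, the dim ones included, were 3791 and 4697 (GFP) and 3510 and 3065 (lipin). Cd8a, Gzma, Gzmb and the B cell marker Cd79a were bright enough to test only through the GFP arrays, where they are high. Groups had to differ on markers kept in this way, so the directions of these genes support nothing. Of 7 stellate cell and fibroblast markers 5 were tested and 4 lay below 0. The sums over all 7 were 37371 and 52514 (GFP) and 18592 and 36671 (lipin). All 3 B cell markers lay below 0, with sums of 2107 and 2471 (GFP) and 1392 and 1158 (lipin). Of 7 macrophage markers tested 5 lay below 0. The sums over these and the untested Marco were 49362 and 28578 (GFP) and 44539 and 28281 (lipin). Other types leaned the other way or were mixed. Of the hepatocyte markers 7 of 8 lay above 0, and of the endothelial markers tested 3 of 5. Krt7, the only bile duct marker tested, lay above 0, and Alas2, the only erythroid one, below. Over all genes tested 50.1% lay above 0. None of these marker genes passed the limma threshold, and their part in the proteasome values was not tested.

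No proteasome gene passed the test. The family's median was slightly above 0, and it was below 0 when GFP replicate 2 was left out, but not when GFP replicate 1 was. A log2 difference here is the mean of the arrays labelled lipin minus the mean of the GFP arrays, on signals raised to a floor of 119.5, and each gene is read by its probe set with the highest mean. Of the 36 genes, 35 were bright enough to test, and Psma8, a core subunit of germ cells, was not. Of the 35, Psmd9 alone passed the filter on low signals only through the arrays of 1 group, those labelled lipin, where it is high. The median log2 difference of the 35 was 0.24, beside 0.0015 for all 8493 genes tested, and 23 of them (65.7%) lay above 0, beside 50.1% of all genes. At a limma adjusted p under 0.05, 0 of 35 were called, where 0 of 13576 probe sets were called in all (0%). The adjusted p-values of the members ran from 0.962 to 0.998. At an unadjusted p under 0.05 there were 2, Psmb7 and Psmd9, where 4.63% of all genes had such a p. An exact permutation test of a single gene cannot go below p = 0.333 with 2 arrays against 2.

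Both arrays labelled lipin stood above both GFP arrays in 8 of the 35 genes (22.9%) and under both in 4 (11.4%). Over all genes tested these shares were 17.3% and 16.0%. The 8 were Psmb1, Psmb2, Psmb4, Psmb7, Psmc1, Psmd4, Psmd5 and Psmd9, and the 4 were Psma3, Psmd3, Psmd6 and Psmd11. Psmd9 passed the filter only through the lipin arrays, where it is high, so its place among the 8 supports nothing. With an array left out the groups separate more easily, since fewer arrays have to agree. Leaving out GFP replicate 1 made the higher count 20 (57.1%), beside 33.8% of all genes, and leaving out lipin replicate 2 made it 16 (45.7%), beside 33.3%. The lower count was 14 (40%, beside 30% of all genes) without GFP replicate 2, 9 (25.7%, beside 32.7%) without lipin replicate 1 and 7 (20%, beside 30.5%) without lipin replicate 2. After median centring of the arrays the higher count was 5 (14.3%), beside 16.7% of all genes.

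**Figure D1:**
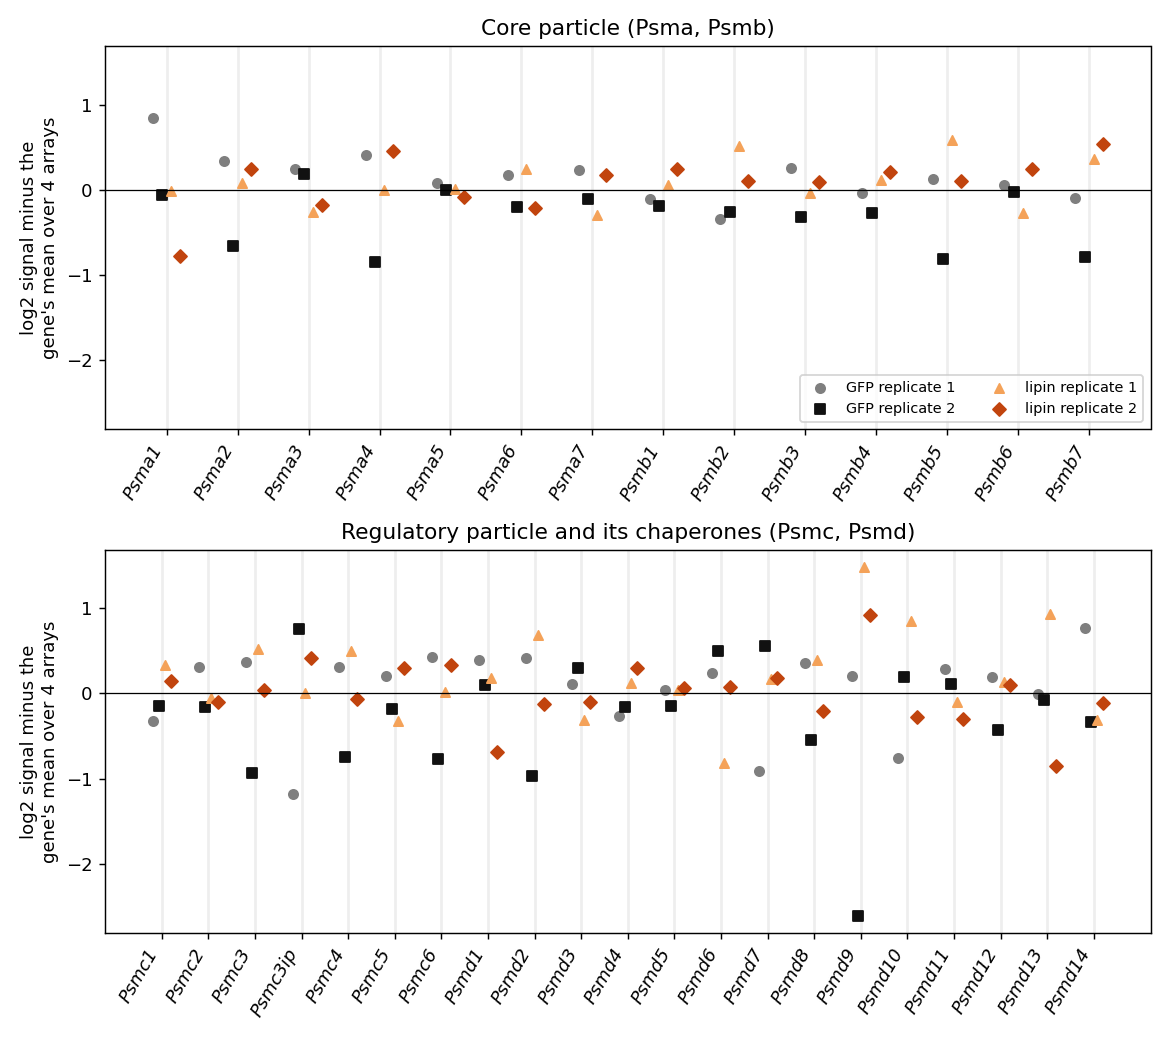
Log2 signal of each proteasome gene in each array minus the mean of that gene over the 4 arrays, for 14 core genes (top) and 21 genes of the regulatory particle group (bottom). GFP replicate 2 (black squares) is the lowest array in 17 of the 35 genes, and its lowest point is Psmd9.

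GFP replicate 2 was the lowest of the 4 arrays in 17 of the 35 genes (48.6%), beside 27.3% of all genes tested. It was the highest in 4 (11.4%), beside 34.2% of all genes. GFP replicate 1 exceeded GFP replicate 2 in 27 of the 35 (77.1%), beside 44.7% of all genes, and in the core particle in 13 of 14. The lipin arrays showed no such order, with lipin replicate 1 above lipin replicate 2 in 17 of the 35. Without GFP replicate 2 the median log2 difference of the family was -0.11, and 13 of the 35 lay above 0. Leaving out GFP replicate 1 gave 0.22, and leaving out lipin replicates 1 and 2 in turn gave 0.15 and 0.21. The actin ratio was highest and the array correlation lowest in the same array, and their part in the low proteasome signals was not tested.

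The gap between the core and the regulatory particle was smaller than the spread of the array-by-array gap within groups (SD 0.11). The median log2 difference was 0.18 for the 14 core genes and 0.24 for the 21 regulatory genes, a gap of -0.058. Those 21 include Psmc3ip and the base assembly chaperones, which are not subunits of the finished particle. Without them the 17 regulatory subunits had a median of 0.18, level with the core, with 10 above 0 and 7 below. The quartiles of the core genes were -0.06 and 0.41 and those of the regulatory genes -0.16 and 0.43. Array by array, the core median minus the regulatory median was -0.058 and -0.084 for GFP replicates 1 and 2, against -0.11 and 0.10 for lipin replicates 1 and 2. The arrays labelled lipin lay on both sides of the GFP arrays. Leaving out GFP replicate 1 gave a gap of 0.17 and leaving out lipin replicate 1 a gap of 0.15, so its sign turned on those arrays. Without GFP replicate 2 the medians were -0.13 for the core and -0.097 for the regulatory genes.

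**Figure D2:**
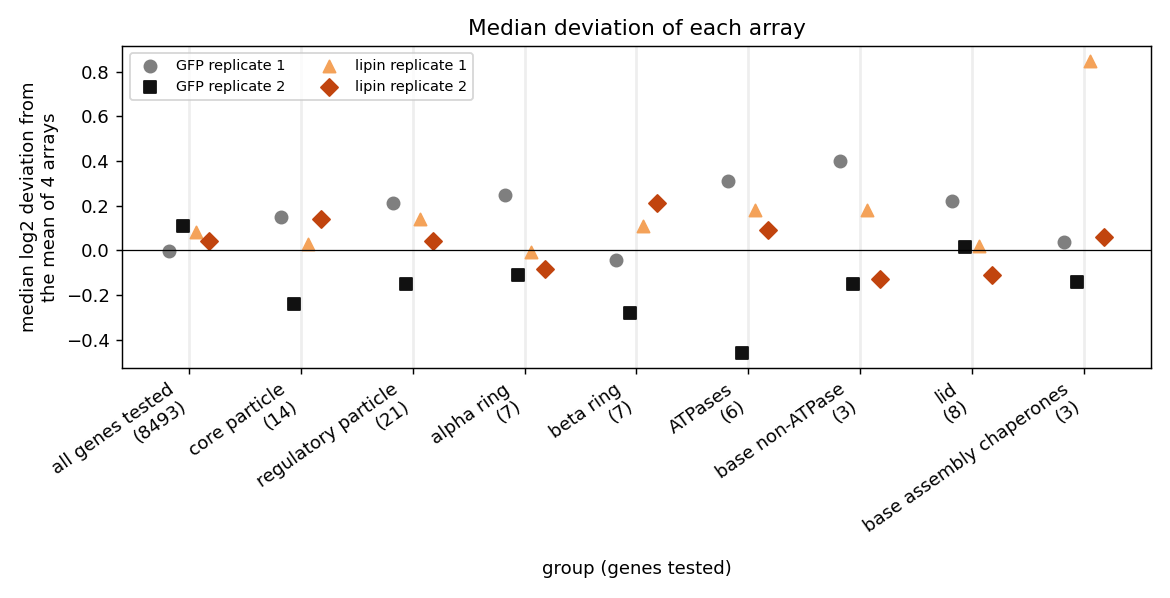
Median log2 deviation of each array from the mean of the 4 arrays, for all genes tested, both particles and the parts of each, with the number of genes tested in brackets. GFP replicate 2 lies at -0.24 in the core particle and -0.15 in the regulatory particle but at 0.11 over all genes, and GFP replicate 1 at 0.15, 0.21 and -0.0028.

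The alpha ring, which forms the gate of the core, was centred near 0. Its 7 genes had a median log2 difference of -0.072, with 3 above 0 and 4 below. Psma1, which ran lowest, read 5687 and 3038 in the GFP arrays against 3131 and 1850 in lipin replicates 1 and 2. Lipin replicate 1 lay between the GFP arrays, and the log2 difference was -0.79 ± 0.45 (SE, n = 2 per group, limma adjusted p = 0.962). Its 2 other probe sets were too dim to test. Psma3 read 17478 and 16778 in the GFP arrays against 12285 and 13028 in the lipin arrays, or 17128 ± 495 and 12656 ± 526 (SD, n = 2 each). The groups did not overlap, and the difference was -0.44 ± 0.31, with a range from -0.48 to -0.39 when any array was left out.

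Psma4 stood highest in the alpha ring, with 7329 and 3053 in the GFP arrays against 5482 and 7541 in the lipin arrays. GFP replicate 1 lay between the lipin arrays, and GFP replicate 2 was far below the others. The log2 difference was 0.44 ± 0.42, and -0.19 without GFP replicate 2. Psma2 gave 0.32 ± 0.37, and -0.18 without that array. Psma7 read 5214 and 4108 in the GFP arrays against 3626 and 5018 in the lipin arrays, with overlap, and its second probe set gave -0.25 beside -0.12. Psma5 was nearly even across arrays, at 5297 and 5017 in the GFP arrays against 5064 and 4748 in the lipin arrays (-0.072 ± 0.35). Its second probe set separated the groups, with 6882 and 5591 against 3084 and 4513, a difference of -0.73 ± 0.37, and a dim one, which passed the filter only through the GFP arrays, gave -0.94 ± 1.43. Psma6 had 3 tested probe sets from 0.035 to 0.89.

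In the beta ring, 6 of 7 genes lay above 0 and the median was 0.32. For 4 of the 7, both arrays labelled lipin stood above the GFP arrays, and for none did both stand under them, where the shares over all genes were 17.3% and 16.0%. Of those 4, Psmb1 and Psmb4 depended on the probe set read. Averaging the probe sets of each gave -0.47 for Psmb1 and 0.02 for Psmb4. Setting the beta ring beside the alpha ring was a choice made after the values were seen. The beta ring median was 0.21 without GFP replicate 2, with 5 of 7 above 0, where the alpha ring stood at -0.19 with 0 of 7 above 0. No test of the difference between the rings was made.

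The catalytic subunits cut the substrate, and 2 of the 3 lay above 0. Psmb7, the trypsin-like subunit, read 9842 and 6120 in the GFP arrays against 13523 and 15306 in the lipin arrays. Both lipin arrays were above both GFP arrays, with means of 14414 ± 1260 and 7981 ± 2632 (SD, n = 2 each). The log2 difference was 0.89 ± 0.34 (1.85-fold, limma adjusted p = 0.962). It stayed above 0 with any array left out, at 0.55 without GFP replicate 2 and 1.23 without GFP replicate 1.

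Psmb5, the chymotrypsin-like subunit, whose promoter is printed above, read 5451 and 2831 in the GFP arrays against 7443 and 5363 in the lipin arrays. Lipin replicate 2 was slightly below GFP replicate 1, so the groups overlapped. The difference was 0.69 ± 0.40 (adjusted p = 0.962), and 0.21 without GFP replicate 2. Psmb6, the caspase-like subunit, read 7631 and 7235 in the GFP arrays against 6111 and 8741 in lipin replicates 1 and 2. The lipin arrays enclosed the GFP arrays, and the difference was -0.024 ± 0.34.

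Of the beta subunits without an active site, Psmb2 stood highest, at 1395 and 1470 in the GFP arrays against 2521 and 1895 in the lipin arrays. The groups did not overlap, and the difference was 0.61 ± 0.50, with a range from 0.40 to 0.82 when any array was left out. Psmb1 read 6372 and 6008 in the GFP arrays against 7099 and 8131 in the lipin arrays, both lipin arrays being higher (0.30 ± 0.33). A dimmer Psmb1 probe set went the other way, with 5125 and 6803 in the GFP arrays against 3208 and 3526 in the lipin arrays, a difference of -0.81 ± 0.36 (limma adjusted p = 0.962). The groups did not overlap on either of these probe sets, so the direction of Psmb1 depended on which was read, and a still dimmer one gave -0.89 ± 0.80 with overlap. Psmb4 likewise gave 0.32 ± 0.33 on its brighter probe set, where the lipin arrays (7896 and 8431) exceeded the GFP arrays (7093 and 6028), and -0.28 ± 0.37 on the other. Psmb3 stood at 0.06 ± 0.35.

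**Figure D3:**
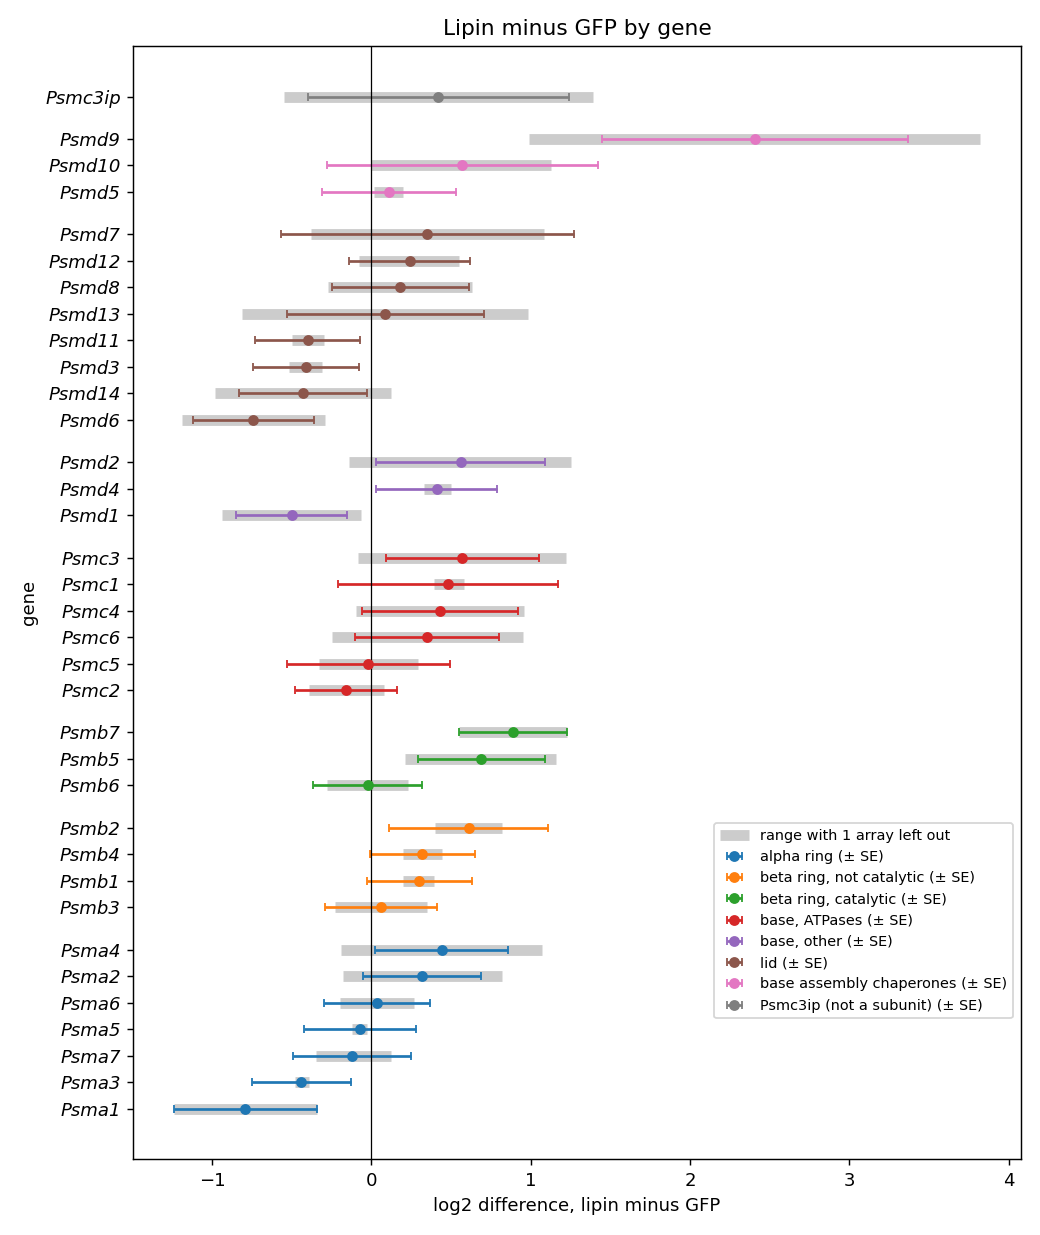
Log2 difference (lipin minus GFP) of each tested proteasome gene with its standard error from limma, grouped by place in the particle, over a grey bar that spans the values with any 1 array left out. Psmd9 stands at 2.41 and Psmb7 at 0.89, and 19 of the 35 grey bars cross 0.

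The ATPases of the base unfold the substrate, and 4 of the 6 lay above 0 with a median of 0.39. Without GFP replicate 2, 1 of the 6 lay above 0 and the median was -0.15. Psmc3 read 3772 and 1522 in the GFP arrays against 4203 and 2999 in the lipin arrays, a difference of 0.57 ± 0.48, and -0.087 without GFP replicate 2. Psmc4 had the same form, with 2809 and 1346 against 3195 and 2158 (0.43 ± 0.49, and -0.097 without that array). Psmc6 read 4300 and 1873 in the GFP arrays against 3242 and 4035 in the lipin arrays (0.35 ± 0.45, and -0.25 without it). In these 3 genes GFP replicate 2 was the lowest array, and GFP replicate 1 lay within or above the lipin arrays. Psmc4 and Psmc6 each had a dimmer tested probe set of the opposite sign. That of Psmc6 separated the groups, with 1802 and 1831 against 1450 and 1551 (-0.28 ± 0.51), and that of Psmc4 did not, with 591 and 508 against 585 and 332 (-0.31 ± 1.15).

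Psmc1 was the ATPase in which the groups did not overlap, at 759 and 858 in the GFP arrays against 1204 and 1054 in the lipin arrays. Its difference was 0.48 ± 0.69, between 0.39 and 0.58 when any array was left out. The standard error is wider than that range, since the fit gives dim probe sets a wider pooled spread. Psmc5 read 1965 and 1505 in the GFP arrays against 1371 and 2102 in the lipin arrays, with the lipin arrays on either side (-0.019 ± 0.51). Psmc2 read 17374 and 12518 in the GFP arrays against 13470 and 13011 in the lipin arrays on its brighter probe set (-0.16 ± 0.32). Its other probe set gave signals of 3500 and 1385 in the GFP arrays against 4787 and 5361 in the lipin arrays. There both lipin arrays were higher, and the difference was 1.20 ± 0.46 (2.30-fold, limma adjusted p = 0.962), or 0.53 without GFP replicate 2. The identifier of the brighter probe set marks it as one that can match several transcripts, and without such probe sets Psmc2 stood at 1.20.

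The non-ATPase subunits of the base hold the ubiquitin receptors and the docking sites. Psmd2, a scaffold and receptor, read 2975 and 1133 in the GFP arrays against 3582 and 2040 in the lipin arrays (0.56 ± 0.53, and -0.14 without GFP replicate 2). Psmd1, the other large base subunit, read 21211 and 17284 in the GFP arrays against 18283 and 9985 in lipin replicates 1 and 2 (-0.50 ± 0.35). That difference was -0.067 without lipin replicate 2, which was by far the lowest array. Psmd4, a ubiquitin receptor, read 2924 and 3152 in the GFP arrays against 3805 and 4305 in the lipin arrays. The groups did not overlap, and the difference was 0.41 ± 0.38, between 0.33 and 0.50 when any array was left out. Its 2 other tested probe sets gave 1.32 and 0.34 and turned on single arrays. The first passed the filter only through the lipin arrays and stood at -0.19 without GFP replicate 2, and the second ranged from 34.9 in GFP replicate 1 to 2569 in GFP replicate 2 and stood at -1.87 without the former.

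The lid, which carries the deubiquitinase, was the part with the lowest median, -0.16 over 8 genes, 4 on each side of 0. With 1 array left out its median ran from -0.30 to -0.02. The latter was without lipin replicate 2, where the alpha ring stood at -0.026. In 3 of the 8 both arrays labelled lipin lay below both GFP arrays, and in none above, where all genes gave 16.0% and 17.3%. Psmd11, among those 3, stood above 0 on its other tested probe sets (0.16 to 0.18). Psmd6 read 6819 and 8128 in the GFP arrays against 3260 and 6089 in the lipin arrays, a difference of -0.74 ± 0.38 (1.67-fold lower, limma adjusted p = 0.962). It was -0.29 without lipin replicate 1 and -1.19 without lipin replicate 2. Its second probe set gave -0.16 ± 0.35 with overlapping groups. Psmd3 read 7063 and 8037 in the GFP arrays against 5248 and 6091 in the lipin arrays (-0.41 ± 0.33), and it lay between -0.52 and -0.31 when any array was left out. Psmd14, the deubiquitinase itself, read 9515 and 4434 in the GFP arrays against 4500 and 5163 in the lipin arrays. GFP replicate 1 was far above the other 3, and the difference was -0.43 ± 0.40, or 0.12 without it.

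Psmd11, another lid subunit, was read by 6 probe sets with different directions. The brightest read 47662 and 42241 in the GFP arrays against 36465 and 31672 in the lipin arrays, with no overlap (-0.40 ± 0.33). The 3 other tested probe sets gave 0.16, 0.17 and 0.18. A dim one, left untested by the filter, read 45.1 and 40.7 in the GFP arrays against 696 and 1308 in the lipin arrays. Fitted without the filter, it stood 7.98-fold higher on the floored scale, both GFP arrays being at the floor, and its limma adjusted p was 0.836. Psmd7 also split, at 0.35 ± 0.92 (355 and 982 in the GFP arrays, 749 and 757 in the lipin arrays) and -0.38 ± 1.00 (700 and 635, then 363 and 722). Another Psmd7 probe set, too dim to test, read 354 and 282 in the GFP arrays against 46.2 and 56.2 in the lipin arrays, both at the floor, a difference of -1.40 when fitted without the filter (limma adjusted p = 0.836). Psmd8, Psmd12 and Psmd13 stood at 0.18, 0.24 and 0.088, all with overlapping groups.

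Psmd9, an assembly chaperone of the base and not a subunit of the finished particle, stood furthest from 0. Its brighter probe set gave 875 and 124 for GFP replicates 1 and 2 against 2122 and 1432 for lipin replicates 1 and 2. Its second gave 353 and 176 against 1109 and 686. Both probe sets passed the filter on the mean over all arrays (373) only through the lipin arrays, the brighter with a geometric mean of 329 in the GFP arrays against 1743 in the lipin arrays. Groups had to differ on a probe set kept in this way, so the values are a description and support nothing. GFP replicate 2 was the lowest array on both, and on the brighter it lay close to the floor. The log2 differences were 2.41 ± 0.96 (5.30-fold, limma adjusted p = 0.962) and 1.81 ± 1.21 (3.50-fold, adjusted p = 0.962). Without GFP replicate 2 they were 0.99 and 1.30, and without GFP replicate 1 they were 3.82 and 2.31.

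The other base chaperones did not stand apart. Psmd10, also called gankyrin, read 441 and 851 in the GFP arrays against 1342 and 613 in lipin replicates 1 and 2 (0.57 ± 0.85). The value was -0.00037 without lipin replicate 1. Psmd5 read 2593 and 2290 in the GFP arrays against 2610 and 2637 in the lipin arrays (0.11 ± 0.42), where the highest GFP array and the lowest lipin array were nearly level. Psmc3ip meets the naming rule but encodes a recombination factor and no proteasome subunit, and it stood at 0.42 ± 0.82. Without Psmc3ip the median of the 34 other genes was 0.21.

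**Figure D4:**
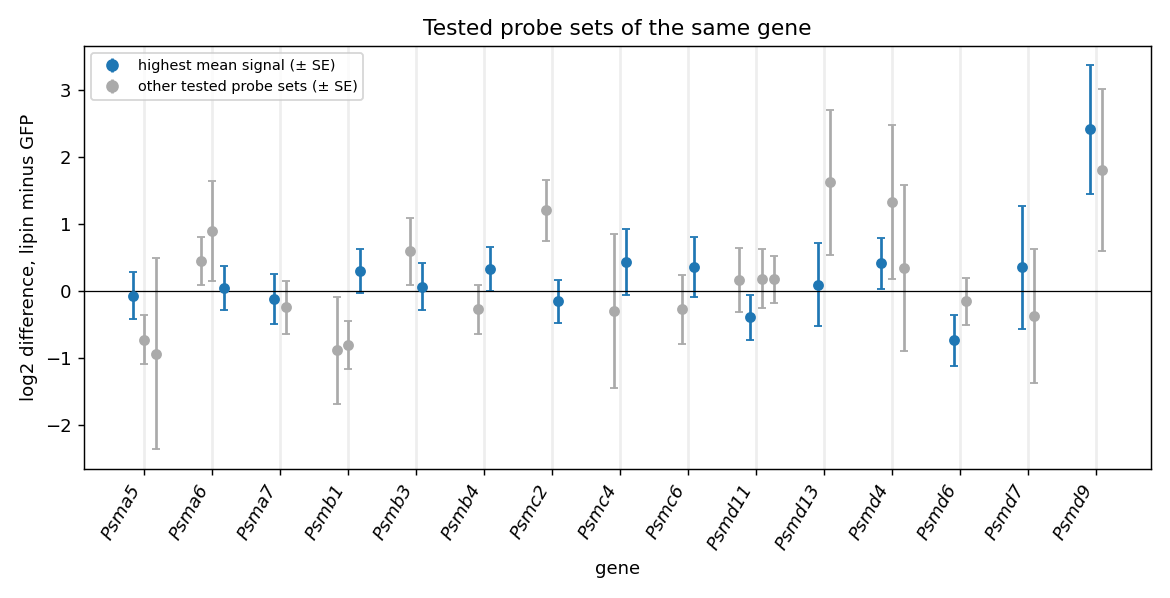
Log2 difference (lipin minus GFP) with its standard error for every tested probe set of the 15 proteasome genes that have several, blue for the brightest and grey for the others. In 7 genes the probe sets lie on both sides of 0, and both Psmd9 probe sets, which passed the filter only through the lipin arrays, lie above it.

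Of the 15 genes with several tested probe sets, 8 had all of them on the same side of 0 and 7 had them on both sides. The 7 were Psmb1, Psmb4, Psmc2, Psmc4, Psmc6, Psmd7 and Psmd11. The widest spread was in Psmd13, from 0.088 to 1.62, followed by Psmc2, from -0.16 to 1.20. The higher Psmd13 value (1.62 ± 1.08) turned on GFP replicate 2, whose signal of 117 was below the floor. Without that array it was -0.11. Over the 35 genes, 16 kept their direction with each array left out in turn and 19 did not. The 16 were Psma1, Psma3, Psma5, Psmb1, Psmb2, Psmb4, Psmb5, Psmb7, Psmc1, Psmd1, Psmd3, Psmd4, Psmd5, Psmd6, Psmd9 and Psmd11. The 12 genes whose groups did not overlap must keep their direction in this way, which leaves Psma1, Psma5, Psmb5 and Psmd1 as genes with overlap that did so.

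Genes that build, activate or feed the proteasome showed no common direction. Of 34 tested, 18 lay above 0 and 16 below, and 0 passed at a limma adjusted p under 0.05. The lipin arrays stood above the GFP arrays in 5 and under them in 6, near the shares of all genes (17.3% and 16.0%). Usp14, a deubiquitinase bound to the base, read 4490 and 8001 in the GFP arrays against 3550 and 3344 in the lipin arrays (-0.80 ± 0.39, limma adjusted p = 0.962). Leaving out GFP replicate 2 gave -0.38, and leaving out GFP replicate 1 gave -1.22. Ecpas, a proteasome adaptor, gave 1.76 ± 1.10, or 0.31 without GFP replicate 2, where its signal was 57.1 and below the floor. Ecpas is among the 5 that stood above. Like Psmd9, it passed the filter only through the lipin arrays, where it is high, so its value supports nothing. Of the core assembly chaperones, Psmg3 read 1024 and 839 in the GFP arrays against 1565 and 2029 in the lipin arrays (0.94 ± 0.58), Pomp stood at 0.22 ± 0.35 and Psmg1 at -0.0022 ± 0.52.

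Nfe2l1, which encodes NRF1, read 1514 and 2298 in the GFP arrays against 2235 and 1096 in the lipin arrays, with overlap (-0.25 ± 0.54). Nfe2l2, which encodes the related NRF2, read 7973 and 3656 in the GFP arrays against 5610 and 3762 in the lipin arrays (-0.23 ± 0.42). In that list of 8 tested transcription genes, Nfya alone lay above 0, at 0.90 ± 0.79. Among shuttles and segregase factors, 6 of 9 lay above 0, where 50.1% of all genes did. Both lipin arrays were below both GFP arrays in 3, namely Ubqln1, Ubqln2 and Faf1, and above them in 0. Over all genes these shares were 16.0% and 17.3%, and a list of 9 is too short to be set apart from them. Vcp, the ATPase that extracts ubiquitinated proteins, read 9482 and 3417 in the GFP arrays against 7990 and 7926 in the lipin arrays (0.48 ± 0.43, and -0.25 without GFP replicate 2). The activators Psme3 and Psme4 and the inhibitor Psmf1 stood at -0.10, -0.44 and -0.52. The interferon-inducible Psmb8, Psmb9 and Psmb10 and the activator subunit Psme1 lay above 0, with a median of 0.29, and in all 4 the groups overlapped. Without GFP replicate 2 they stood at -0.21, -1.39, 0.0082 and -0.38.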

How the data were processed

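Each array has 1 linear intensity per probe set, a signal that the authors computed with MAS5 according to the submitters' processing notes and deposited; no version or scaling target is given in the sources used here. MAS5 subtracts mismatch probes, which leaves dim probe sets noisy. With 64 control probe sets left out, signals below 119.5 (the 20th percentile of all values) were set to that floor and put on the log2 scale. Testing was limited to 13576 probe sets whose mean reached the 40th percentile. limma 3.58.1 in R 4.3.3 (lmFit on group, eBayes with an intensity trend) was fitted to all of them, and two-sided p-values were adjusted over the whole table (Benjamini-Hochberg, threshold 0.05). The fit has 2 residual and 12.7 prior degrees of freedom, and its code was tested on simulated data.

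Gene names came from the platform annotation, and promoters from RefSeq (GRCm38.p6). The brightest tested probe set, by mean, stood for its gene. No probe set's level was set against that of another. The members and the lists of related genes were chosen with earlier results of these data known, so no p-value is adjusted over a list alone. Arrays were given one by one for the 4 highest and 4 lowest genes of each particle, the catalytic subunits, the ATPases, Psmd14 and genes whose probe sets differ in sign, and for some other genes chosen after their values were seen. Of related lists, up to 4 members with the smallest p were to be named, beside some added for their role. Ubiquitin genes, Adrm1 and Ddi2 are not analysed here. The alternatives varied the normalization, floor, filter, variance model, threshold, probe set choice, replicate block and arrays used.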

Additional observations from a re-analysis of the deposited data

How the results depend on the processing

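No proteasome gene passed the limma threshold under any alternative run. The core and regulatory medians stayed above 0 under every change of normalization, floor, filter and probe set choice. With 1 array left out in turn, the core median ran from -0.13 to 0.34, the regulatory median from -0.097 to 0.26 and their gap from -0.053 to 0.17, and both medians were below 0 only without GFP replicate 2. The gap was 0.059 without the filter on dim probe sets, where Psma8 enters the core group. Genes with both lipin arrays above both GFP arrays numbered 5 (14.3%) after median centring, beside 16.7% of all genes. With an array left out, genes whose lipin arrays lay above numbered 11 to 20 (31.4% to 57.1%), beside 30.1% to 36.2% of all genes. Genes with lipin below then numbered 6 to 14 (17.1% to 40%), beside 30% to 39.9%. The 6 were those without GFP replicate 1, where the share of all genes was 39.9%. Over all genes tested, the probe sets past the threshold numbered 0 to 13 with an array left out, 1031 by the rule of 1.5 times on every pair of arrays, and 52 with the replicate number as a block. Of the 1031, 540 were higher and 491 lower in the lipin arrays. Among member genes, read by their brightest probe sets, Psmd9 alone met that rule as higher and 0 as lower. Psmd9 passed the filter only through the lipin arrays. Same-numbered arrays did not deviate together (correlation 0.0283), so the numbers were not taken as pairs, and the replicate block called 0 member genes.

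Some single genes changed sign. Psmc5 stood at 0.058 after quantile normalization and 0.011 after median centring, and Psmb6 at 0.0059 after median centring. Averaging a gene's probe sets gave -0.47 for Psmb1, 0.52 for Psmc2, 0.027 for Psmd11 and -0.015 for Psmd7. Without the probe sets whose identifiers mark possible cross-matches, the values were 1.20 for Psmc2 and 0.17 for Psmd11. With an array left out in turn, 19 genes changed sign. In the core particle the range was -0.18 to 0.82 for Psma2, -0.19 to 1.07 for Psma4, -0.20 to 0.27 for Psma6, -0.35 to 0.12 for Psma7, -0.23 to 0.35 for Psmb3 and -0.28 to 0.23 for Psmb6. Among the ATPases it was -0.39 to 0.081 for Psmc2, -0.087 to 1.22 for Psmc3, -0.097 to 0.96 for Psmc4, -0.33 to 0.29 for Psmc5 and -0.25 to 0.95 for Psmc6, and it was -0.55 to 1.39 for Psmc3ip. For the others it was -0.14 to 1.25 for Psmd2, -0.38 to 1.08 for Psmd7, -0.27 to 0.63 for Psmd8, -0.00037 to 1.13 for Psmd10, -0.077 to 0.55 for Psmd12, -0.81 to 0.98 for Psmd13 and -0.98 to 0.12 for Psmd14. Fewer arrays entered these fits, and the cause of each reversal was not tested. The number of arrays limits the precision, and 9 of 65 member probe sets were too dim to test.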
